A study of Mus musculus with 12 samples.

Results

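The genes described here are 10 genes of the response of macrophages and microglia to interleukin-4 (IL-4) and interleukin-13 (IL-13), out of 55487 genes in the count table. They were chosen by symbol and comprise 3 receptor chains (Il4ra, Il13ra1 and Il10ra), 4 transcription factors (Stat6, Irf4, Pparg and Klf4), 2 classic targets of alternative activation (Chil3 and Retnla) and the feedback inhibitor Socs1. Il10ra belongs to the receptor for interleukin-10 (IL-10) rather than to that of IL-4 or IL-13. RNA was measured in 12 libraries of microglia sorted from the basal forebrain and striatum of YARG mice on postnatal day 13. YARG mice carry a yellow fluorescent protein (YFP) reporter behind the coding sequence of Arg1, the gene of arginase-1. YFP-positive cells are named ARG1+ microglia and YFP-negative cells from the same tissue ARG1- microglia, and each population was collected as 3 female and 3 male libraries. All 12 libraries share the YARG strain, the age and a sort gate of CX3CR1-positive, CD206-negative cells, and each library pooled the brains of several pups. The labels give no cytokine treatment, and the comparison is between resident cells that differ in the reporter.

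IL-4 and IL-13 signal through receptors that contain IL-4Rα, the product of Il4ra. Il2rg encodes the common γ chain that pairs with it to form the IL-4 receptor of immune cells, whereas Il13ra1 encodes the chain that pairs with it to bind IL-13 as well as IL-4. JAK kinases on these chains phosphorylate STAT6, which enters the nucleus and binds DNA. In macrophages this programme is called alternative activation, and Arg1, Chil3 and Retnla are its best known targets. Since the cells were sorted on an Arg1 reporter, the comparison asks whether other genes of this programme differ with it.

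The 6 ARG1- libraries held 30954399 to 60625170 counts each, and the 6 ARG1+ libraries 28356659 to 46569667. Between 17846 and 19844 genes were detected in ARG1- libraries and between 19018 and 21734 in ARG1+ libraries. Replicates of a group differed by more than sampling noise in all 12 pairs, with a chi-square per degree of freedom between 30.9 and 98.4. Levels are given as CPM, the counts out of 1000000 in the scaled total of tested genes, and 3 counts, taken as the floor of detection, corresponded to 0.0511 to 0.102 CPM. Arg1 itself was read 52 times in ARG1+ female replicate 15 and 2 times in ARG1+ female replicate 8, and was at 0 in the remaining 10. In these sequencing counts the Arg1 transcript therefore did not separate the populations that were sorted on the YFP protein. By quantitative PCR on sorted cells, the paper reports Arg1 expression restricted to the YFP-positive population.

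The upstream sequences of Chil3, Retnla and Pparg are shown first, because Chil3 and Retnla were read in no library and Pparg was the gene of the set that differed between the populations. RefSeq promoter windows (GRCm38.p6) were at hand for 9 of the 10 genes, 11 windows in all, and Il10ra was not matched. The letters TTCNNNNGAA, the spacing that STAT6 is known to prefer, and TTCNNNGAA, the spacing typical of other STAT proteins, were searched in the 250 bases before each start, and both motifs read the same on either strand. TTCNNNNGAA was present in 1 of the 11 windows, that of Retnla, and in 5.85% of 32851 windows of all genes. TTCNNNGAA was present in 1 of the 11 windows, that of Chil3, and in 7.02% of all windows. The sequences below run 5′ to 3′ on the strand of the gene, cover only bases outside annotated exons, and carry the motif in capitals. Chil3 lies on the minus strand at chr3:106167565-106167814, Retnla on the plus strand at chr16:48842359-48842550, and the window of the third RefSeq start of Pparg on the plus strand at chr6:115421816-115422065.
Chil3: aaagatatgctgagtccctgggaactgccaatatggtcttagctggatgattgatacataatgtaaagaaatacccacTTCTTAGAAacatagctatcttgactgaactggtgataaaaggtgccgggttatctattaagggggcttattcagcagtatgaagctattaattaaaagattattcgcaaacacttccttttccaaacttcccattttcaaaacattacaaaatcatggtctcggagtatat
Retnla: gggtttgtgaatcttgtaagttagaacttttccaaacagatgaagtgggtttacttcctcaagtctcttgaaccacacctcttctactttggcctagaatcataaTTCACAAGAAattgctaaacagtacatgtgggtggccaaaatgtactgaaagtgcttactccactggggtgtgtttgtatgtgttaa
Pparg: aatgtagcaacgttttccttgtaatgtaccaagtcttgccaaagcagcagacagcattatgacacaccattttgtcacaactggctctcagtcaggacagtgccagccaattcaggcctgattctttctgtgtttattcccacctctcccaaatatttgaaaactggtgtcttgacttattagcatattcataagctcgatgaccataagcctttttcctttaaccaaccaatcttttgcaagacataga
The site of Chil3 starts 172 bases and that of Retnla 145 bases before the RefSeq start. None of the 3 Pparg windows held either motif, and the counts per gene do not tell which Pparg start was used.

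Of the 10 genes, 8 had enough counts to be tested. Pparg was higher in ARG1+ microglia and 0 were lower, also at an unadjusted p under 0.05 and by DESeq2, where 6.44% of the 16908 genes tested were higher and 9.42% lower at the same limit (edgeR quasi-likelihood test with sex as a term, Benjamini-Hochberg adjusted p under 0.05). The median log2 fold change of the 8 genes was -0.02, beside 0.06 over all genes tested. The genes fell into an abundant and a sparse class. Per kilobase of exon, Il10ra had 273 ± 41.6 CPM in ARG1- and 255 ± 44.7 CPM in ARG1+ microglia (SD, n = 6 libraries each, as below). Il13ra1 followed with 106 ± 20.3 and 92.9 ± 15.5 CPM per kilobase, Stat6 with 74.3 ± 9.87 and 67.1 ± 13.6, and Il4ra with 47.6 ± 13.4 and 48.9 ± 7.25. Socs1 was far below them at 1.59 ± 1.18 and 1.76 ± 0.520 CPM per kilobase. Klf4 (0.514 ± 0.378 and 0.297 ± 0.181), Irf4 (0.446 ± 0.394 and 0.855 ± 0.382) and Pparg (0 and 0.488 ± 0.319) were the lowest genes detected.

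The library ranges of Il10ra and Il13ra1 did not overlap in either population, nor did those of Il4ra and Socs1. The ranges of Il13ra1 and Stat6 overlapped, as did those of Stat6 and Il4ra, although the gene named first was above the other in 6 of 6 libraries of each population. Socs1 and Klf4 overlapped in ARG1- libraries alone. Klf4 and Irf4 overlapped in both populations, with Klf4 above Irf4 in 3 of 6 ARG1- and 1 of 6 ARG1+ libraries, and so did Irf4 and Pparg. Il10ra, Il13ra1, Stat6 and Il4ra thus held the upper 4 places in both populations, with the other detected genes of the set well below.

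**Figure D1:**
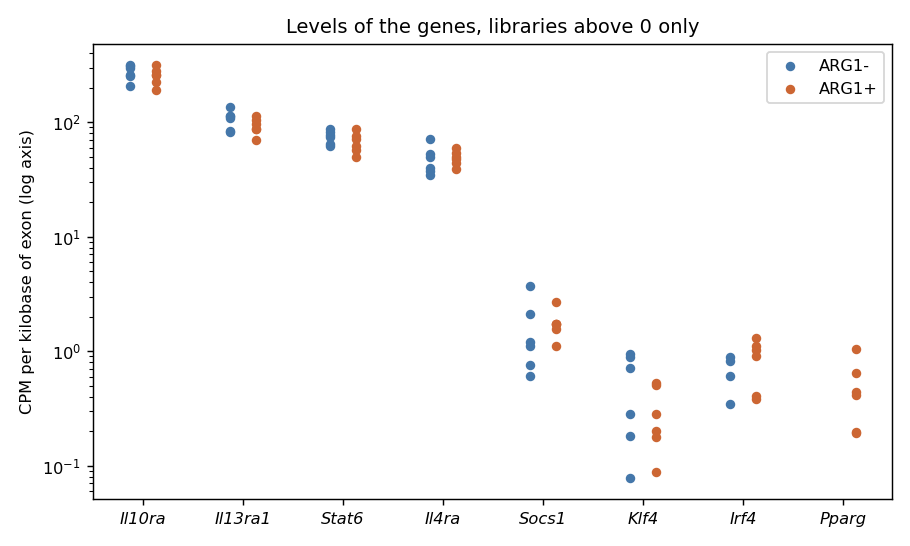
Level of each gene in CPM per kilobase of exon on a log axis, 1 point per library, ARG1- in blue and ARG1+ in orange; libraries at 0 are not drawn, nor are Chil3 and Retnla. The receptor chains and Stat6 lie between 34.3 and 318 CPM per kilobase in every library, and the other genes lie at 3.74 or less.

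The receptor chains were abundant and similar in both populations. Il4ra (chr7:125552120-125579474, plus strand) was measured at 425, 298 and 319 CPM in ARG1- female replicates 1, 2 and 13, and at 240, 227 and 206 CPM in ARG1- male replicates 5, 6 and 14. In ARG1+ microglia it was measured at 287, 296 and 232 CPM in female replicates 7, 8 and 15, and at 266, 358 and 321 CPM in male replicates 11, 12 and 16. The populations overlapped when the sexes were pooled, although the highest and the lowest library were both ARG1-. The log2 fold change over both sexes was 0.07 (SE 0.17, 95% interval -0.29 to 0.43, adjusted p = 0.83 by edgeR), which leaves room for a change of up to 1.35-fold upwards. Il4ra exons share 571 bases with the antisense gene Gm44876, and since the library kit does not mark strand, reads of that stretch cannot be told apart.

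Il13ra1 (chrX:36112110-36171259, plus strand) ranged from 304 to 501 CPM with a median of 412 in ARG1- libraries, and from 259 to 422 CPM with a median of 340 in ARG1+ libraries. Most of the ARG1+ range lay within the ARG1- range, and the log2 fold change was -0.19 (SE 0.14, 95% interval -0.50 to 0.13, adjusted p = 0.44 by edgeR). Il13ra1 is X-linked, yet females and males overlapped in both populations. The log2 difference of females from males was 0.16 (SE 0.21) in ARG1- and 0.08 (SE 0.21) in ARG1+ microglia, with adjusted p = 0.91 and 1 by edgeR.

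Il10ra (chr9:45253837-45269149, minus strand), the ligand-binding chain of the IL-10 receptor, was the most abundant gene of the set. It ranged from 727 to 1105 CPM with a median of 969 in ARG1- libraries, and from 662 to 1113 CPM with a median of 903 in ARG1+ libraries. The populations overlapped over most of their range, and the log2 fold change was -0.11 (SE 0.13, 95% interval -0.39 to 0.17, adjusted p = 0.62 by edgeR).

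Stat6 (chr10:127642986-127660957, plus strand), which carries the signal of the IL-4 and IL-13 receptors to DNA, ranged from 270 to 384 CPM with a median of 333 in ARG1- libraries. In ARG1+ libraries it ranged from 220 to 386 CPM with a median of 292, so that the highest ARG1+ library was level with the highest ARG1- library. The log2 fold change was -0.15 (SE 0.14, 95% interval -0.46 to 0.16, adjusted p = 0.54 by edgeR). Stat6 exons share 40 bases with the antisense gene Nab2.

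Pparg (chr6:115360951-115490399, plus strand), a lipid-sensing nuclear receptor that works with STAT6 in alternative activation, was the gene of the set that separated the populations. It had 0 counts in all 6 ARG1- libraries. In ARG1+ female replicates 7, 8 and 15 it had 60, 17 and 46 counts, or 1.90, 0.579 and 1.31 CPM. In ARG1+ male replicates 11, 12 and 16 it had 25, 146 and 41 counts, or 0.568, 3.07 and 1.22 CPM. Every ARG1+ library was thus above every ARG1- library, as for 3.48% of all genes tested, whereas 6.56% lay below in the same sense. The mean of 1.44 ± 0.942 CPM in ARG1+ microglia was at least 17.8-fold higher than the mean floor of 3 counts per library in ARG1- libraries, 0.0808 CPM (adjusted p = 0.0020 by edgeR). The call was kept in all 12 fits that left out 1 library, with adjusted p between 0.0031 and 0.0087, but Pparg drops out of the test when at least 10 counts are asked of every library. With 0 counts in ARG1- libraries, Pparg passed the filter on low counts through its ARG1+ libraries alone. Its call and its lack of overlap thus rest on the same counts and are not separate support.

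The level of Pparg remained low, and ARG1+ libraries differed from ARG1- libraries in other properties too. They tended to hold more detected genes, as given above. The 100 most abundant genes took fewer of their reads, 28.6 to 31.1% of counts against 30.3 to 34.1%. The ranges of the populations overlapped in each property. Detected genes in ARG1+ female replicates 7, 8 and 15 numbered 19018, 21734 and 20428, beside 1.90, 0.579 and 1.31 CPM of Pparg. In ARG1+ male replicates 11, 12 and 16 they numbered 21101, 20782 and 20402, beside 0.568, 3.07 and 1.22 CPM. Among 12 markers of border macrophages, 9 were tested, and ARG1+ microglia had more of 2, Stab1 (239 and 431 CPM in ARG1- and ARG1+ microglia, adjusted p = 0.028) and Folr2 (2.84 and 8.41 CPM, adjusted p = 0.0056), both by edgeR. The summed level of the list was 382 to 584 CPM in ARG1- and 503 to 928 CPM in ARG1+ libraries, with Cd209f at 0 counts in every library. Lyve1 and Cd163 had 0 counts in ARG1- libraries and no more than 7 and 21 counts in an ARG1+ library. Stab1 and Mrc1 made up most of this sum. Mrc1 encodes CD206, on which the gate removed positive cells, and stood at 121 and 147 CPM (adjusted p = 0.37 by edgeR), while Cbr2 stood at 3.40 and 1.99 CPM (adjusted p = 0.28). The part of these cells and of library complexity in the Pparg counts was not tested. In bulk samples of this kind, fewer cells of a type and less RNA per cell cannot be told apart.

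Irf4 (chr13:30749226-30766976, plus strand), a transcription factor induced by IL-4, was sparse and scattered. It had 57, 119 and 0 counts in ARG1- female replicates 1, 2 and 13, and 153, 0 and 148 counts in ARG1- male replicates 5, 6 and 14. In ARG1+ libraries it had 202, 58 and 177 counts in female replicates 7, 8 and 15, and 82, 258 and 150 counts in male replicates 11, 12 and 16. All 6 ARG1+ libraries held reads, against 4 of 6 ARG1- libraries, and the ranges overlapped. The means were 2.19 ± 1.93 CPM in ARG1- and 4.19 ± 1.87 CPM in ARG1+ microglia, and the log2 fold change of 0.997 had an SE of 1.09 (95% interval -1.37 to 3.36, adjusted p = 0.60 by edgeR). The interval is too wide to tell a change in either direction. Irf4 is also expressed by B cells and dendritic cells, whose summed marker levels were 887 to 1044 and 2260 to 2887 CPM in ARG1- libraries and 599 to 718 and 1409 to 1744 CPM in ARG1+ libraries. Ighm, Cd79b and Siglech, the last of which microglia express, made up most of these sums and were lower in ARG1+ microglia, Pax5 was at 0 counts in every library, and the part of such cells in the Irf4 counts was not tested.

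Klf4 (chr4:55527143-55532466, minus strand), a factor that cooperates with STAT6 in macrophages, ranged from 8 to 127 counts in ARG1- and from 9 to 71 counts in ARG1+ libraries. This corresponded to 0.237 to 2.87 CPM with a median of 1.52, and to 0.267 to 1.61 CPM with a median of 0.735. The populations overlapped, and the log2 fold change was -0.75 (SE 0.67, 95% interval -2.21 to 0.71, adjusted p = 0.51 by edgeR). It was -0.14 without ARG1- male replicate 6 and -1.18 without ARG1+ male replicate 11.

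Chil3 (chr3:106147554-106167564, minus strand) encodes the chitinase-like protein Ym1, and Retnla (chr16:48842551-48844461, plus strand) the resistin-like protein known as FIZZ1. Both had 0 counts in all 12 libraries and were not tested. Counting error alone allows up to 3 counts, or 0.0511 to 0.102 CPM, in any library. The genes whose upstream sequences are shown above with a STAT motif were therefore not detectable at this depth in either population.

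Socs1 (chr16:10782240-10785536, minus strand), a feedback inhibitor of cytokine signalling that STAT proteins induce, ranged from 1.77 to 10.9 CPM with a median of 3.38 in ARG1- libraries. In ARG1+ libraries it ranged from 3.20 to 7.84 CPM with a median of 5.02, entirely within the ARG1- range. The log2 fold change was 0.16 (SE 0.44, 95% interval -0.80 to 1.13, adjusted p = 0.85 by edgeR), and its sign turned when ARG1- female replicate 2 or ARG1+ female replicate 15 was left out.

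**Figure D2:**
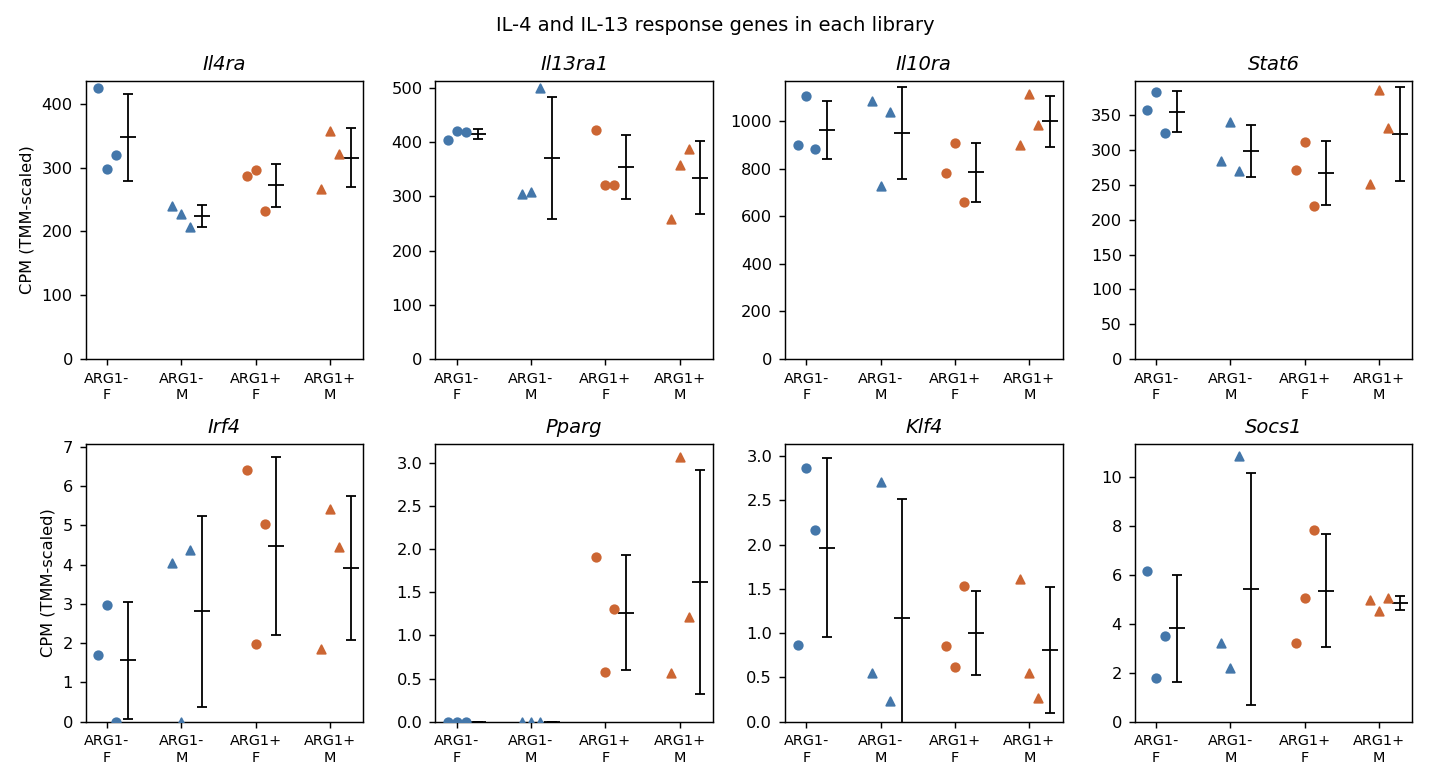
CPM of the 8 detected genes in each library, by population and sex (F, circles; M, triangles), with the mean and SD of the 3 libraries of each group in black; each panel has its own axis from 0. Pparg is at 0 in all 6 ARG1- libraries and above 0 in all 6 ARG1+ libraries, whereas the other genes overlap between the populations.

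**Figure D3:**
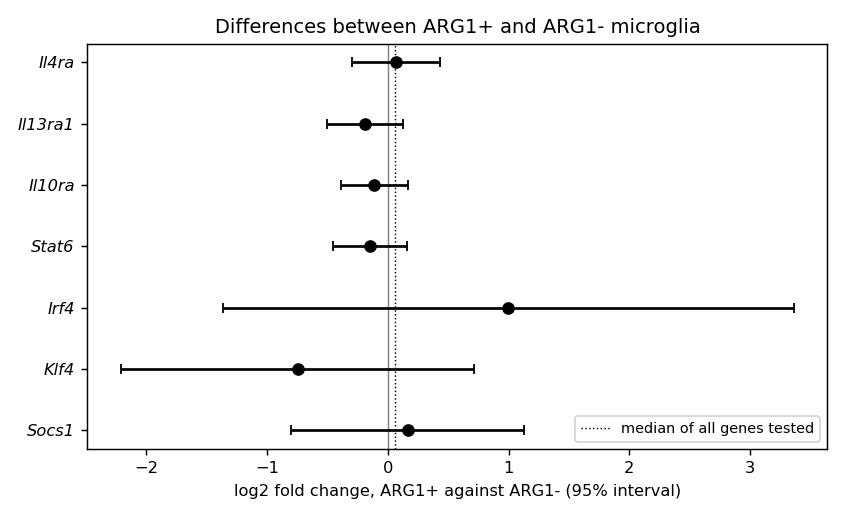
Log2 fold change of ARG1+ against ARG1- microglia in both sexes with its 95% interval for 7 genes; the dotted line is the median of all genes tested, 0.06. All 7 intervals include 0; Pparg is not drawn, because its fold against 0 counts is only a lower bound.

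The spread between libraries set what could be seen. The coefficient of variation among ARG1- libraries was 28.2% for Il4ra, 19.2% for Il13ra1, 15.2% for Il10ra and 13.3% for Stat6. It was 88.5% for Irf4, 73.5% for Klf4 and 73.9% for Socs1. Among ARG1+ libraries Il4ra varied least, at 14.8%, and Pparg most, at 65.4%.

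The contrasts within each sex used the same counts as the call over both sexes and are not separate support. Pparg was the gene called in each. Its adjusted p was 0.019 in females and 0.026 in males (edgeR contrasts of 4 group means), where 6.76% and 5.13% of all genes were called in either direction. These calls were less firm than that over both sexes. The female call was lost without ARG1- female replicate 2 or any of the 3 ARG1+ female replicates. The male call was lost without ARG1+ female replicate 7, 8 or 15, ARG1- male replicate 6 or 14, or ARG1+ male replicate 12 or 16, with adjusted p up to 0.12, and in the 6 male libraries alone (adjusted p = 0.072).

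Il4ra gave values of opposite sign in females and males. ARG1+ and ARG1- female libraries had means of 272 ± 34.4 and 347 ± 67.7 CPM (SD, n = 3), and their nearest pair stood at 296 and 298 CPM. ARG1+ and ARG1- male libraries had means of 315 ± 46.3 and 224 ± 17.1 CPM. The log2 fold change was -0.35 in females (SE 0.16, 95% interval -0.71 to 0.01, adjusted p = 0.23 by edgeR) and 0.49 in males (SE 0.16, 95% interval 0.13 to 0.85, adjusted p = 0.10 by edgeR). The difference between the sexes, female minus male, was -0.84 (SE 0.23, 95% interval -1.35 to -0.33). Its unadjusted p was 0.0038 and its adjusted p 0.43 by edgeR, so that it did not pass the correction over all genes. No gene passed in that test, or 0% of 16908, while 1576 had an unadjusted p under 0.05 and DESeq2 called 287; the adjusted p of Il4ra by DESeq2 was 0.059.

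In ARG1- microglia the log2 difference of females from males was 0.63 for Il4ra (SE 0.16, adjusted p = 0.31 by edgeR and 0.024 by DESeq2). In ARG1+ microglia it was -0.21 (SE 0.16, adjusted p = 1 by edgeR). None of the 8 genes tested was called by edgeR in either comparison of the sexes, where 0.0946% and 0.0355% of all genes were. At an unadjusted p under 0.05 there was 1, Il4ra in ARG1- microglia, which was also the 1 gene that DESeq2 called. Stat6 also gave values of opposite sign. It stood at 355 ± 29.6 and 268 ± 45.9 CPM in ARG1- and ARG1+ females, and at 298 ± 37.3 and 323 ± 67.5 CPM in males. Its log2 fold change was -0.41 in females (SE 0.18, adjusted p = 0.19 by edgeR) and 0.12 in males (SE 0.18, adjusted p = 0.76 by edgeR). The difference between the sexes for Stat6 was -0.52 (SE 0.25, 95% interval -1.07 to 0.02, adjusted p = 0.55 by edgeR). The replicate numbers 1 to 6 are all ARG1- libraries and 7 to 12 all ARG1+ libraries, of both sexes, while 13 to 16 hold 1 library of each group. The sources used here do not say what the numbers stand for.

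**Figure D4:**
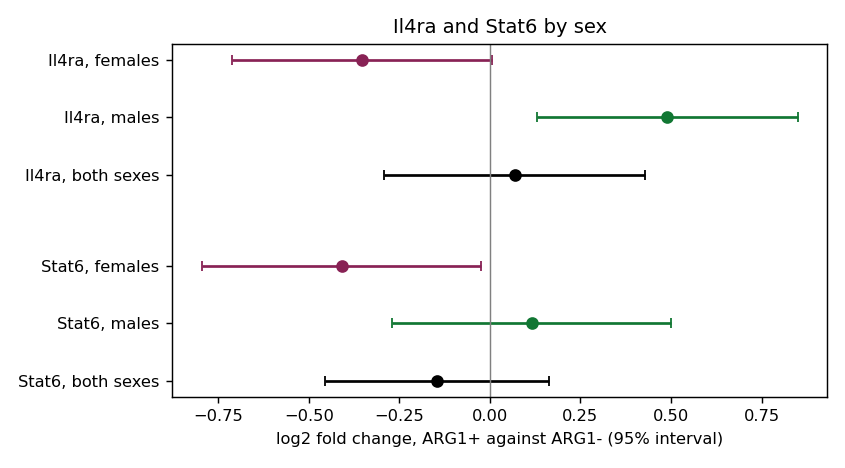
Log2 fold change of ARG1+ against ARG1- microglia for Il4ra and Stat6 in females, males and both sexes, with 95% intervals. Il4ra lies at -0.35 in females and 0.49 in males; the adjusted p of that difference is 0.43.

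The genes whose pattern over the 12 libraries was most like that of Il4ra were Icam1, an adhesion molecule, Man2b1, a lysosomal mannosidase, and Pla2g15, a lysosomal phospholipase. Their root mean square difference from Il4ra, in centred log2 CPM, was 0.093, 0.11 and 0.11, beside a median of 0.63 over all genes tested. For Stat6 the nearest were Ano10, Trpc4ap and Anapc2 at 0.11, 0.12 and 0.12, beside a median of 0.60. Each of these 6 genes had an adjusted p between 0.39 and 0.99 for ARG1+ against ARG1- microglia by edgeR. Closeness in pattern is a description of these libraries, which also share their depth and scaling.

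The ligands were absent or near the floor. Il13, Il10 and Il25, and the decoy receptor Il13ra2, had 0 counts in all 12 libraries. Il4 had 13 counts in each of ARG1- male replicates 5 and 14, at most 9 counts in an ARG1+ library, and was not tested. Il33, an alarmin that acts upstream of type 2 cytokines, had 35 and 27 counts in ARG1+ male replicates 11 and 16 and 0 counts elsewhere. Of 14 ligands and receptor chains, 8 were tested and 0 were called in either direction. The count was likewise 0 at an unadjusted p under 0.05 by edgeR, and 0 by DESeq2. Il2rg, the common γ chain, stood at 13.1 ± 2.84 CPM in ARG1- and 17.9 ± 4.17 CPM in ARG1+ microglia, and its log2 fold change was 0.45 with SE 0.22 (adjusted p = 0.20 by edgeR). Per kilobase it was 5.49 CPM in ARG1- microglia, well below the 47.6 of Il4ra. Il10rb, the second chain of the IL-10 receptor, had a log2 fold change of -0.11, Il1rl1, the IL-33 receptor, 0.32, Crlf2, a receptor chain for TSLP, -0.23, and Il21r 0.22, with adjusted p of 0.46, 0.69, 0.63 and 0.40 by edgeR.

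Beyond the 10 genes, the lists of pathway genes held 106 others in the table, of which 87 were tested. Of these, 15 (17.2%) were higher and 5 (5.75%) lower in ARG1+ microglia, beside 6.44% and 9.42% of all genes, and their median log2 fold change was 0.39. The lists were chosen with earlier results of these data known, so these shares describe the listed genes and do not test the pathway. DESeq2 called 24 higher. Leaving out 1 library gave 6 to 13 higher and 2 to 5 lower, the fewest higher without ARG1- female replicate 13. The genes that moved are described below by role, and the calls of 11 of the 19 that the naming rule took were lost in at least 1 of the fits that left out a library. Of the 12 such fits, Pik3r1 and Dok2 passed in 9, Ptpn6 in 8, Stat5b and Rxrb in 6, Irs2, Irf5 and Fn1 in 4, and Stub1, Pias1 and Etv3 in 3. Spi1, Igf1, Clec7a, Emilin2, Lipa, Trem2 and Hmox1 passed in all 12. With a term for libraries 13 to 16, which hold 1 library of each group, 11 were higher and 5 lower, and the calls of Fn1, Irs2 and Etv3 were lost (adjusted p = 0.0512, 0.0542 and 0.0613 by edgeR).

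**Figure D5:**
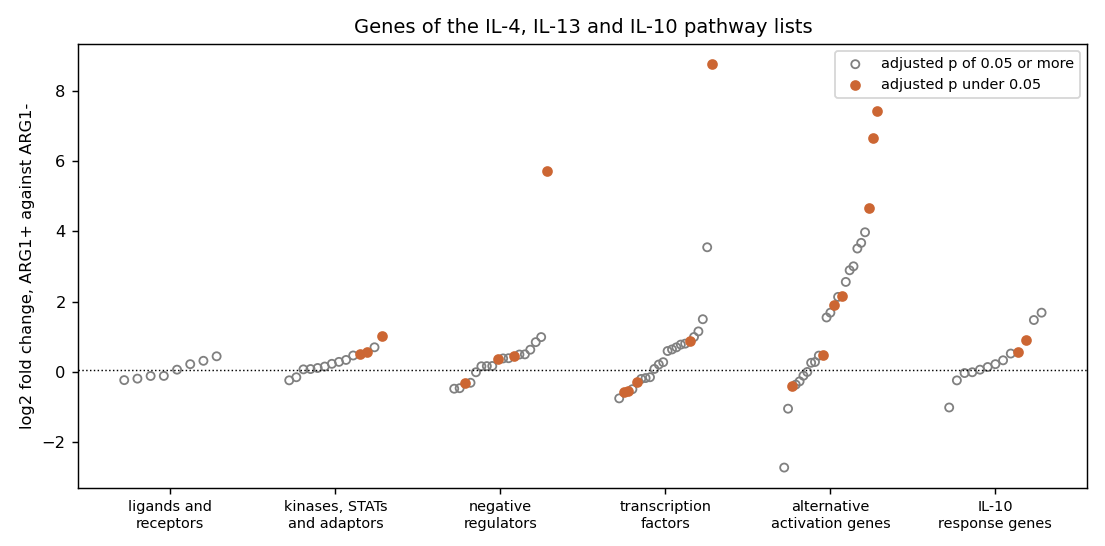
Log2 fold change of ARG1+ against ARG1- microglia for each tested gene of the 6 lists, the 10 genes included, with filled points at an adjusted p under 0.05 and a dotted line at the median of all genes tested; some genes stand in more than 1 list. Fitted values of Pparg and Fn1, which had 0 counts in ARG1- libraries, depend on the prior count of the fit and are not sizes of effect.

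Over all genes tested, 6.44% were higher and 9.42% lower in ARG1+ microglia, which is the background for the count of each list below. Of 15 kinases, STATs and adaptors, 14 were tested and 3 were higher by edgeR. The number lower was 0, also at an unadjusted p under 0.05 and by DESeq2. Pik3r1, a regulatory subunit of PI3 kinase, rose from 64.7 ± 12.8 to 96.3 ± 15.4 CPM (log2 0.57, SE 0.15, adjusted p = 0.023 by edgeR). Stat5b rose from 41.7 ± 8.92 to 58.8 ± 6.81 CPM (log2 0.51, adjusted p = 0.029) and Irs2, the insulin receptor substrate that IL-4Rα recruits, from 17.9 ± 7.50 to 36.6 ± 11.5 CPM (log2 1.04, adjusted p = 0.0497). Its relative Irs1 had 0 counts in every library. Jak1, the kinase bound to IL-4Rα, stood at 44.0 and 46.8 CPM per kilobase in ARG1- and ARG1+ microglia, in the range of Il4ra.

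All 18 negative regulators were tested, and 3 were higher and 1 lower. Dok2, an adaptor that restrains kinase signalling, was read in 1 of 6 ARG1- and all 6 ARG1+ libraries, at 0.265 ± 0.648 and 6.0 ± 2.44 CPM (adjusted p = 0.026 by edgeR). It passed the filter on low counts through its ARG1+ libraries, and its call rests on those same counts. Stub1, a ubiquitin ligase, and Pias1, an inhibitor of STAT signalling, rose by 0.39 and 0.47 on the log2 scale (adjusted p = 0.036 and 0.043). Ptpn6, which encodes the phosphatase SHP-1, fell by 0.32 on the log2 scale, from 812 ± 62.5 to 651 ± 67.3 CPM (adjusted p = 0.025). Socs3, another feedback inhibitor, stood at 22.2 ± 9.42 and 21.8 ± 4.39 CPM (log2 -0.0052, adjusted p = 0.99).

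Of 22 transcription factors, all tested, 2 were higher and 3 lower. Pparg, described above, was among those higher. Spi1, which encodes PU.1, the master factor of the myeloid lineage, fell from 472 ± 36.6 to 318 ± 41.9 CPM (log2 -0.58, SE 0.10, adjusted p = 0.0023). Rxrb, a nuclear receptor of the family that pairs with PPARγ, fell from 114 ± 18.3 to 79.5 ± 19.6 CPM (log2 -0.54, adjusted p = 0.031). Irf5, a factor of inflammatory activation, fell from 419 ± 47.1 to 342 ± 20.8 CPM (log2 -0.29, adjusted p = 0.033).

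The list of alternative activation genes held 39 genes in the table, and only 25 had enough counts to be tested. Chil3, Chil4, Retnla, Retnlg and Cdh1 had 0 counts in every library. Of the 25 tested, 6 were higher and 1 was lower by edgeR, whereas DESeq2 called 11 higher and 1 lower. Igf1, a growth factor, rose from 11.5 ± 2.69 to 54.1 ± 17.3 CPM (log2 2.17, SE 0.22, adjusted p = 0.00028 by edgeR). Clec7a, the β-glucan receptor Dectin-1, rose from 19.9 ± 6.98 to 77.0 ± 24.9 CPM (log2 1.90, SE 0.27, adjusted p = 0.0010), and Lipa, the lysosomal acid lipase, from 138 ± 19.0 to 191 ± 25.7 CPM (log2 0.47, adjusted p = 0.019). Emilin2, a matrix glycoprotein, was read in 1 of 6 ARG1- libraries and all 6 ARG1+ libraries, at 0.0613 ± 0.150 and 4.93 ± 3.62 CPM (adjusted p = 0.0087). Fn1, fibronectin, was at 0 counts in ARG1- libraries and above 3 counts in 4 of 6 ARG1+ libraries, at least 8.55-fold higher (adjusted p = 0.035). Like Pparg, Fn1 passed the filter on low counts through ARG1+ libraries alone. Emilin2, with reads in 1 of 6 ARG1- libraries, also passed it through its ARG1+ libraries. The calls of Fn1 and Emilin2, and their fits without 1 library, rest on those same counts. Trem2, a lipid receptor of microglia, fell from 1634 ± 119 to 1244 ± 161 CPM (log2 -0.40, adjusted p = 0.011). Igf1, Clec7a and Trem2 are also genes of microglial states outside the IL-4 response.

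Of 14 genes that respond to IL-10, 13 were tested and 2 were higher. The number lower was 0 by edgeR and by DESeq2, and 1 at an unadjusted p under 0.05. Hmox1, haem oxygenase-1, rose from 28.8 ± 7.84 to 53.9 ± 6.08 CPM (log2 0.90, SE 0.18, adjusted p = 0.0054 by edgeR), and Etv3, a transcriptional repressor, from 61.6 ± 14.6 to 91.9 ± 17.5 CPM (log2 0.58, adjusted p = 0.048).

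Microglial markers summed to 52935 to 72069 CPM in ARG1- and 42488 to 53157 CPM in ARG1+ libraries, with 7 of 10 lower and 1, Sall1, higher, so that the labelled cell type was well marked in both. Genes with detained introns summed to 2007 to 3686 CPM in ARG1- and 4575 to 6244 CPM in ARG1+ libraries, and 7 of 12 were higher. Immediate early genes summed to 594 to 929 and 808 to 923 CPM, with 2 of 16 tested higher, Egr1 and Atf3. Monocyte markers summed to 5.12 to 14.1 and 1.93 to 6.70 CPM, with Chil3 at 0 counts in every library. Oligodendrocyte and astrocyte markers, with 1 gene lower in each list, summed to 263 to 383 and 179 to 224 CPM in ARG1- libraries and to 171 to 261 and 129 to 151 CPM in ARG1+ libraries. The lower genes, Cnp at 194 and 133 CPM and Slc1a3 at 176 and 131 CPM, made up most of these sums. Among the rest, Mbp stood at 66.0 and 43.5 CPM, Mog at 2.89 and 0.560 CPM and Gfap at 1.17 and 3.22 CPM. Neuronal markers summed to 3.41 to 14.3 and 0.920 to 7.38 CPM, and endothelial markers to 29.8 to 58.1 and 44.9 to 83.6 CPM. Most of the endothelial sum was Pecam1 at 36.5 and 53.1 CPM, with Cldn5 at 0 counts in every library. Among sources of IL-4 and IL-13, markers of T cells and innate lymphoid cells summed to 20.7 to 53.9 and 20.3 to 36.6 CPM, most of it Il7r at 30.2 and 22.3 CPM, with Cd3e, Cd4 and Gata3 at 0 counts in every library. Markers of mast cells, basophils and eosinophils summed to 69.1 to 120 and 72.8 to 98.8 CPM, nearly all of it Siglecf at 69.1 to 120 and 72.4 to 98.8 CPM, with Mcpt8, Fcer1a, Ms4a2 and Prg2 at 0 counts in every library. Markers of neutrophils summed to 299 to 367 and 342 to 512 CPM, nearly all of it Csf3r at 325 and 388 CPM (adjusted p = 0.16 by edgeR), with Ly6g at 0 counts in every library and S100a8 and S100a9 at 0 in ARG1+ libraries. The part of these differences in the values of the pathway genes was not tested.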

How the data were processed

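RNA-seq was carried out on 12 libraries of sorted microglia, 3 for each sex of ARG1+ and ARG1- cells. According to the methods and the labels, the authors prepared cDNA with SMART-Seq v4 and Nextera XT kits, and reads were demultiplexed with bcl2fastq 2.20.0, aligned to GRCm38 with STAR 2.6.1d and counted per gene with featureCounts 1.5.1. The deposited values are raw read counts per gene without normalization; DESeq2 1.28.1 is also named in the processing notes. The strand setting of the counting is not given in the sources used here, and the kit does not mark strand. The counts hold 55487 genes, 260 of which (0.0333% of counts) were not matched to a symbol in GENCODE M21, and 29671 had a count.

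The counts were filtered with filterByExpr on the 4 groups, scaled by trimmed mean of M values (TMM) and fitted with edgeR 4.0.16 in R 4.3.3 by the quasi-likelihood test with sex as a term. Contrasts of 4 group means gave the effect in each sex, its difference between the sexes, and the sexes against each other. P-values were adjusted by Benjamini-Hochberg over the 16908 genes tested, with a limit of 0.05, and intervals cover 95%. The SE is the log2 fold change divided by the square root of F. CPM are counts over the TMM-scaled total of tested genes, and lengths are those of all annotated exons. Fold bounds use a floor of 3 counts per library, which covers counting error only; reads carry no molecular identifiers. The test was also run on simulated counts with known changes.

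The 10 genes and the 21 lists were chosen with earlier results of these data known. The text names all 10 genes in every library; of each pathway list, up to 6 genes past the limit by smallest p, all ligands and receptor chains, and genes with at most 3 counts in every library; and the 3 genes most like Il4ra and Stat6, on log2 CPM with a prior count of 2. Marker genes are named where a result turns on them. Some genes that the rule takes are not reported here. Alternatives were DESeq2 1.42.0 and its size factors, upper-quartile factors, other filters, a fit without sex, a term for libraries numbered 13 to 16, thinned counts, single sexes, the longest transcript and leaving out each library. Libraries came from pooled litters, which the labels do not link to libraries.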

Additional observations from a re-analysis of the deposited data

Results flagged for a closer look

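Il4ra was flagged because its log2 fold change of ARG1+ against ARG1- microglia was -0.35 in females and 0.49 in males. The log2 difference between the sexes, female minus male, was -0.84 (SE 0.23). The edgeR quasi-likelihood test of that difference gave an unadjusted p of 0.0038 and an adjusted p of 0.43, and the adjusted p stayed between 0.31 and 0.70 when 1 library was left out. Among 15 sets of 6 libraries searched for a single library far from the others, 0 held one, where chance would give 0.75.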

How the results depend on the processing

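Pparg was higher in ARG1+ microglia in 7 of the alternative settings over both sexes, with adjusted p up to 0.0050, and in all 12 fits without 1 library, where the number of the 10 genes called higher stayed at 1. The number fell to 0 when at least 10 counts were asked of every library, since Pparg has 0 counts in ARG1- libraries and was then not tested. None of the other tested genes of the 10 passed the limit over both sexes in any setting run. The number of all genes higher in ARG1+ microglia was 2141 by DESeq2, and the genes lower ranged from 1048 to 1553 and those higher from 690 to 1116 without 1 library. Of the other pathway genes, 24 were higher by DESeq2 and 2 were lower with no filter on low counts; without 1 library, 6 to 13 were higher and 2 to 5 lower. DESeq2 called 287 genes for the difference between the sexes, 397 for females against males in ARG1- microglia, 1 of them among the 10, and 38 in ARG1+ microglia. In the 6 male libraries alone 1 gene was called and 0 of the 10. Without 1 library, genes called in females ranged from 91 to 1108 and in males from 8 to 1187, with 0 to 1 of the 10 in each, those for the difference between the sexes from 0 to 10, and those for females against males in ARG1- microglia from 11 to 48. The log2 fold change ranged from -0.030 to 0.67 for Socs1 and from -0.16 to 0.51 for Il1rl1 over both sexes, from -0.013 to 0.26 for Stat6 in males, and from -0.052 to 0.20 for Il13ra1 between females and males in ARG1+ microglia; the cause of these changes was not tested. The Stat6 level in ARG1- microglia was 86.6 CPM per kilobase of the longest transcript, with the order of the genes kept. The median log2 fold change of all genes was 0.06, 0.09 and 0.07 with TMM, DESeq2 and upper-quartile scaling. The methods describe sorting pooled tissue into both populations, but the labels do not tell which libraries share a pool. The groups share no replicate numbers, so no paired analysis was run and the tests treated the libraries as independent. Libraries 13 to 16, 1 of each group, could be given a term of their own. With it Pparg kept its call and 11 other pathway genes were higher in place of 15, the calls of Fn1, Irs2 and Etv3 being lost. Depth and spread limit the sparse genes, and the 95% intervals of Irf4, Klf4 and Socs1 were each more than 1 log2 unit wide.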
